A study of Mus musculus with 16 samples.

Results

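The type IV, XV and XVIII collagens of the basement membrane were followed in lung cells of 2 reporter lines, with and without bleomycin injury. The group was chosen by gene name and holds 8 of the 49437 genes measured: *Col4a1*, *Col4a2*, *Col4a3*, *Col4a4*, *Col4a5*, *Col4a6*, *Col15a1* and *Col18a1*. RNA of tdTomato-positive cells sorted from the left lung lobe of 16 mice was sequenced. *Acta2-tdT* mice (Acta2-CreERT2; tdTomatoflox) label cells in which the *Acta2* promoter, that of α-smooth muscle actin, has driven Cre, and *Pdgfra-tdT* mice (Pdgfra-CreERT2; tdTomatoflox) label cells in which the *Pdgfra* promoter has done so. Each line was given saline or bleomycin, with 4 mice in each of the 4 groups, and cells were collected 14 days later at 11 weeks of age. All mice had received tamoxifen, but *Acta2-tdT* mice ate it in food at 400 mg/kg from 5 days after the saline or bleomycin, while *Pdgfra-tdT* mice had been given 5 injections of 3 mg at 6 weeks of age. Line and tamoxifen schedule therefore cannot be told apart, and each reporter marks whatever cells its Cre has reached, not a purified cell type.

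Collagen IV is the network-forming collagen of every basement membrane, the thin sheet of matrix under epithelium and endothelium and around smooth muscle cells and pericytes. Its chains assemble as trimers: α1 and α2 form the common network, α3, α4 and α5 form the network of the kidney glomerulus and the alveolar wall, and α5 and α6 form a network found among other places around smooth muscle. *Col15a1* and *Col18a1* encode the multiplexins, collagens that carry sugar chains and sit at the face of the basement membrane. *Col18a1* is also the source of endostatin, a fragment that restrains vessel growth. In the lung the α1 and α2 chains and the multiplexins are known from endothelium, mural cells and fibroblasts, and the α3 and α4 chains from alveolar epithelium.

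The 6 collagen IV genes lie in 3 head-to-head pairs (GENCODE annotation of GRCm38). *Col4a1* (ENSMUSG00000031502, chromosome 8, 11198423 to 11312826, minus strand) and *Col4a2* (ENSMUSG00000031503, chromosome 8, 11312805 to 11449287, plus strand) overlap by 22 bases at their starts. The pair *Col4a3* and *Col4a4* on chromosome 1 is 71 bases apart, and the pair *Col4a5* and *Col4a6* on chromosome X is 1308 bases apart. *Col15a1* (ENSMUSG00000028339) spans 47208161 to 47313167 of chromosome 4, and *Col18a1* (ENSMUSG00000001435) spans 77052178 to 77166548 of chromosome 10. RefSeq promoter windows on GRCm38.p6, from 250 bases before to 50 after a start, were at hand for 7 of the 8 genes. The shared promoter of *Col4a1* and *Col4a2* is shown because these genes were the most abundant and moved together, and that of *Col15a1* because it followed another pattern. The windows are chr8:11312777-11313076 (minus strand), chr8:11312555-11312854 (plus strand) and chr4:47207762-47208061 (plus strand), each written 5′ to 3′ with capitals for CCAAT or GGGCGG on either strand.
Col4a1: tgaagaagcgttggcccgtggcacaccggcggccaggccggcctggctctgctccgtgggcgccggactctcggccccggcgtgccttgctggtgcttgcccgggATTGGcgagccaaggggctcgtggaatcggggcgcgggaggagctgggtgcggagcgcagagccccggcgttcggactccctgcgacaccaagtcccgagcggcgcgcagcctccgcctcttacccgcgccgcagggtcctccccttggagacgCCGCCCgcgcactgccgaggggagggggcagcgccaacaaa
Col4a2: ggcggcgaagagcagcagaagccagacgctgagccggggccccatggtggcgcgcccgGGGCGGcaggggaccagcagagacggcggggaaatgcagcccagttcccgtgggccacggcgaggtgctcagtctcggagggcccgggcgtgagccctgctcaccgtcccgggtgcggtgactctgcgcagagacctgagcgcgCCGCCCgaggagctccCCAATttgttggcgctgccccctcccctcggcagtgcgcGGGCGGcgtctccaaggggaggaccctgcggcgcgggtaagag
Col15a1: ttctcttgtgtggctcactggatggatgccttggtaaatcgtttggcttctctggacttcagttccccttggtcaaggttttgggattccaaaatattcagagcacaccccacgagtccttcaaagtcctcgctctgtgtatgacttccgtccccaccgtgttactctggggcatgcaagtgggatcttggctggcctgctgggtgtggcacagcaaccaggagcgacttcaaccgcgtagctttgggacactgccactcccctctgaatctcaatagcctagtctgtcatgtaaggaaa

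The first 2 windows overlap by 78 bases, which hold a GGGCGG box that appears in both, read from opposite strands. G and C made up 74% of the *Col4a1* window and 73.7% of the *Col4a2* window, more than in 95.2% and 94.9% of all 32851 promoter windows. The *Col4a1* window held 1 CCAAT and 1 GGGCGG, and the *Col4a2* window held 1 CCAAT and 3 GGGCGG. The *Col15a1* window had 52.3% G and C, close to the median of 52.7%, and held neither motif. Of all windows, 37.4% held CCAAT and 35.7% held GGGCGG. The CArG box, known from smooth muscle genes (CC, then any run of A or T of 6 bases, then GG), was in none of the members' 8 windows and in 1.63% of all windows. These matches describe letters, not binding.

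The libraries differed more than the groups' names tell, and every result below rests on this. The deposited values are FPKM, fragments counted per length of transcript and per total of mapped fragments, computed for each mouse alone. The sum of FPKM over nuclear protein-coding genes was 35603 to 57788 in *Acta2-tdT* saline mice, 231058 to 463127 in *Acta2-tdT* bleomycin mice, 29964 to 59840 in *Pdgfra-tdT* saline mice and 28512 to 137952 in *Pdgfra-tdT* bleomycin mice. Each test of the members is therefore given on FPKM and on scaled FPKM, in which this sum was set to 49122 in every mouse. *Acta2* was 139 to 3211 FPKM in the 8 *Acta2-tdT* mice and 0.831 to 19.4 FPKM in the 8 *Pdgfra-tdT* mice, or 186 to 341 and 0.821 to 14.9 scaled FPKM. *Pdgfra*, the gene whose promoter drives the second reporter, was 3.64 ± 0.92 scaled FPKM (SD, n = 4) in *Pdgfra-tdT* saline mice against 0.449 ± 0.219 in *Acta2-tdT* saline mice. With bleomycin it was 1.56 ± 0.61 in *Pdgfra-tdT* and 1.01 ± 0.34 scaled FPKM in *Acta2-tdT* mice, with overlapping ranges. On FPKM the order was turned, at 1.70 ± 0.66 in *Pdgfra-tdT* and 7.87 ± 3.94 in *Acta2-tdT* bleomycin mice, without overlap. Of 7 fibroblast markers, 3 reached 1 FPKM in 2 or more *Pdgfra-tdT* bleomycin mice, 1 (*Tcf21*) was at 0 in all 4, and the list summed to 2.62 to 160 FPKM there. The 8 leukocyte markers summed to 715 to 1419 FPKM in *Acta2-tdT* saline, 4284 to 6350 in *Acta2-tdT* bleomycin, 44.4 to 109 in *Pdgfra-tdT* saline and 352 to 3050 in *Pdgfra-tdT* bleomycin mice. On scaled FPKM these ranges were 987 to 1436, 461 to 981, 36.5 to 179 and 606 to 1565, so that with bleomycin the medians of the lines (764 and 1182) had the opposite order. In such bulk samples, fewer cells of a type and less RNA per cell cannot be told apart.

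In *Acta2-tdT* cells the major basement membrane collagens rose after bleomycin. *Col4a1*, which encodes the α1 chain, was 1.198, 1.61, 1.01 and 1.74 FPKM in the 4 saline mice and 46.1, 21.1, 55.3 and 71.2 FPKM in the 4 bleomycin mice. *Col4a2*, which encodes the α2 chain, was 1.71, 2.29, 1.53 and 2.18 FPKM with saline and 88.5, 31.8, 115 and 139 FPKM with bleomycin. Neither gene's groups overlapped, and bleomycin mouse 6 was the lowest of its group for both. The share of all genes whose groups did not overlap was not counted, for this or any other comparison. A lack of overlap therefore only describes the values, and 70.4% of all genes tested were called higher here on FPKM. The log2 fold change, on the scale of FPKM plus 1, was 4.26 ± 0.40 (SE) for *Col4a1* and 4.84 ± 0.46 for *Col4a2* (limma, Benjamini-Hochberg adjusted p = 1.51e-05 and 1.58e-05).

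The multiplexins rose as well. *Col15a1* was 0.0242, 0.0215, 0.108 and 0.132 FPKM with saline, where the Cufflinks lower bound was 0 in 2 mice, and 13.3, 3.79, 7.37 and 8.90 FPKM with bleomycin. *Col18a1* was 0.497, 0.763, 0.815 and 1.08 FPKM with saline and 18.8, 7.99, 10.1 and 14.4 FPKM with bleomycin. For both, every bleomycin mouse lay above every saline mouse, with mouse 5 highest and mouse 6 lowest. The log2 fold changes were 3.02 ± 0.32 and 2.89 ± 0.30 (adjusted p = 1.93e-05 and 1.95e-05), and log2(FPKM + 1) understates the change of *Col15a1* most, since its saline values were near 0.

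These increases were set against a rise of most genes. On FPKM 4 of the 4 members tested were higher, but 70.4% of all 12523 genes tested were also higher and the median gene had a log2 change of 1.76. On scaled FPKM the median was -0.02, 23.9% of genes were higher, and the 4 members were still higher. *Col4a1* then went from 1.58 ± 0.49 to 6.35 ± 1.35 scaled FPKM (SD, n = 4), a log2 change of 1.51 ± 0.22 (SE, adjusted p = 0.0003). *Col4a2* went from 2.21 ± 0.70 to 12.04 ± 3.59 scaled FPKM, a log2 change of 2.0 ± 0.28 (adjusted p = 0.000238). The scaled change was 0.98 ± 0.16 for *Col15a1* (adjusted p = 0.000714) and 0.56 ± 0.20 for *Col18a1* (adjusted p = 0.0342). The call of *Col18a1* was lost when any of 6 of the 8 mice was left out, with adjusted p from 0.0519 to 0.0859. Without a filter 3 members in place of 4 were called higher on scaled FPKM, where 2684 of 42342 genes were. *Col15a1* and *Col18a1* reached the filter of 1 FPKM in 4 mice through the *Acta2-tdT* bleomycin group, apart from *Col18a1* in 1 saline mouse, so that their being tested already required a high value there.

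Markers of cell types moved in the same mice. The 7 fibroblast markers (*Pdgfra*, *Col1a1*, *Col1a2*, *Col3a1*, *Dcn*, *Lum* and *Tcf21*) summed to 19.1 to 38.9 FPKM with saline and 1030 to 3143 FPKM with bleomycin in *Acta2-tdT* mice, or 25.4 to 33.1 and 219 to 333 scaled FPKM. Most of this sum with bleomycin came from the 3 fibrillar collagens of the list, which alone made 692 to 2339 FPKM. The 7 pericyte markers went from 22.0 to 27.8 FPKM to 39.9 to 92.8 FPKM, but on scaled FPKM they were lower with bleomycin (7.55 to 11.8) than with saline (23.6 to 33.5). The 6 smooth muscle markers went from 322 to 746 FPKM to 2034 to 5355 FPKM, but overlapped on scaled FPKM (429 to 634 and 368 to 568). The 4 mesothelial markers went from 0.350 to 1.18 FPKM to 2.08 to 25.2 FPKM and overlapped on scaled FPKM (0.483 to 1.24 and 0.321 to 5.36). The 9 epithelial markers overlapped on both scales, at 44.9 to 787 and 310 to 1544 FPKM, and of the 5 tested 5 were called higher by limma on FPKM and 0 on scaled FPKM, where none had an unadjusted p under 0.05. No marker of these lists was at 0 in every mouse of either group, and the part of such cells in the collagen values was not tested.

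**Figure D1:**
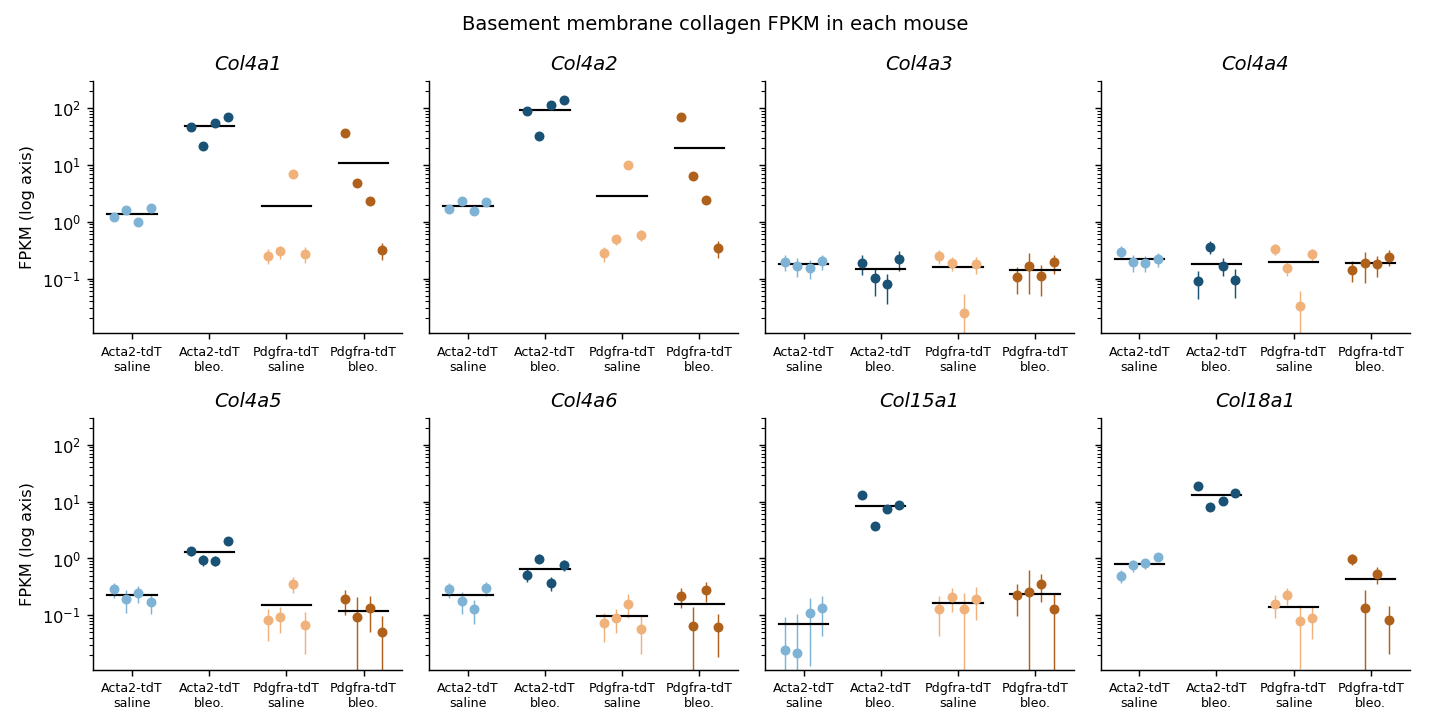
FPKM of the 8 basement membrane collagens in each mouse (log axis). Points are mice in the order of their numbers, 1 to 4 for saline and 5 to 8 for bleomycin, with the bounds that Cufflinks gave, cut at the foot of the axis. Black lines are group means, n = 4. *Col4a1*, *Col4a2*, *Col15a1* and *Col18a1* stood high in all 4 *Acta2-tdT* bleomycin mice, while in *Pdgfra-tdT* mice *Col4a1* and *Col4a2* were spread from 0.253 to 68.8 FPKM.

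The minor collagen IV chains stayed low in all 16 mice, and none of the 4 genes passed the filter in any comparison. *Col4a5*, the α5 chain, was highest in *Acta2-tdT* bleomycin mice, at 1.33, 0.945, 0.914 and 2.06 FPKM against 0.172 to 0.286 FPKM with saline. *Col4a6*, the α6 chain, was 0.519, 0.997, 0.373 and 0.768 FPKM in the same bleomycin mice against 0.128 to 0.302 FPKM with saline. Neither overlapped between these groups on FPKM, but on scaled FPKM both did, and the bleomycin mean was then below the saline mean (0.182 and 0.262 for *Col4a5*, 0.104 and 0.253 for *Col4a6*). In *Pdgfra-tdT* mice *Col4a5* was 0.0507 to 0.361 FPKM and *Col4a6* was 0.0582 to 0.281 FPKM, with saline and bleomycin ranges overlapping for both.

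*Col4a3* and *Col4a4*, the chains of the glomerular and alveolar network, were 0.0249 to 0.251 FPKM and 0.0334 to 0.365 FPKM over the 16 mice, and their 4 groups overlapped on FPKM. On scaled FPKM both were lower in *Acta2-tdT* mice with bleomycin than with saline, without overlap, at 0.0206 ± 0.0084 against 0.205 ± 0.049 for *Col4a3* and 0.0302 ± 0.0318 against 0.261 ± 0.099 for *Col4a4* (SD, n = 4). Without a filter, limma called both lower on scaled FPKM (adjusted p = 0.00379 and 0.0112), where 14244 of 42342 genes were called lower, and called neither on FPKM (adjusted p = 0.616 and 0.632). Without a filter *Col4a5* was called higher with bleomycin on FPKM (log2 change 0.89, adjusted p = 0.00933), where 10076 of the 42342 genes were called higher, and was at -0.09 on scaled FPKM (adjusted p = 0.366). Olfactory and vomeronasal receptor genes, most of which are used in the nose alone, served as a gauge of low signal, although some olfactory receptors are known from lung cells. The median of these 1443 genes was 0.323 to 0.332 FPKM in *Acta2-tdT* saline mice, 0.0134 to 0.122 in *Acta2-tdT* bleomycin mice, 0.175 to 0.336 in *Pdgfra-tdT* saline mice and 0.0917 to 0.317 in *Pdgfra-tdT* bleomycin mice. *Col4a3* exceeded that median in 4 of 16 mice and *Col4a4* in 5, while *Col4a2* did so in 15 and *Col4a1* in 13. In *Acta2-tdT* saline mice *Col4a5*, *Col4a6* and *Col15a1* were below it in all 4 mice, and *Col18a1* was above it in all 4. In *Acta2-tdT* bleomycin mice, where the median of the receptor genes was lowest, *Col4a3* was above it in 3 of 4 mice and the other 7 members in all 4. In *Pdgfra-tdT* saline mice *Col4a3*, *Col4a4*, *Col4a6*, *Col15a1* and *Col18a1* were also below it in all 4 mice.

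*Col4a1* and *Col4a2* together made up 65.6 ± 4.7% of the summed FPKM of the 8 members in *Acta2-tdT* saline mice and 84.3 ± 5.9% in *Acta2-tdT* bleomycin mice (SD, n = 4). The sum itself went from 5.03 ± 0.85 to 166 ± 71 FPKM. *Col18a1* held 15.7 ± 3.8% and 8.62 ± 3.38% of it, and *Col15a1* held 1.43 ± 1.12% and 5.30 ± 1.93%. In *Pdgfra-tdT* mice the share of *Col4a1* and *Col4a2* ran from 34.1 to 95.5% with saline and from 46.6 to 98.3% with bleomycin, so the groups could not be described by their means.

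In *Pdgfra-tdT* cells no member passed the test for bleomycin, and the collagen IV pair varied strongly from mouse to mouse. *Col4a1* was 0.253, 0.302, 6.87 and 0.274 FPKM in saline mice 1 to 4, and 36.2, 4.85, 2.28 and 0.314 FPKM in bleomycin mice 5 to 8. *Col4a2* was 0.277, 0.489, 10.0 and 0.582 FPKM with saline and 68.8, 6.52, 2.45 and 0.347 FPKM with bleomycin. Saline mouse 3 stood high among saline mice, bleomycin mouse 8 lay with the other saline mice, and the groups overlapped. The log2 fold changes were 1.46 ± 1.06 (SE) for *Col4a1* and 1.55 ± 1.24 for *Col4a2* (limma, adjusted p = 0.791 for both). On scaled FPKM they were 1.14 ± 0.74 and 1.19 ± 0.88 (adjusted p = 0.776 for both). None of the 2 members tested was called on either scale, and none had an unadjusted p under 0.05. With single mice left out the values ran from 0.54 (without mouse 5) to 2.15 (without mouse 8) for *Col4a1* and from 0.45 to 2.34 for *Col4a2* on FPKM, and neither passed. Without saline mouse 3 the scaled values were 1.69 and 1.80 (limma, adjusted p = 0.270 and 0.271), both with an unadjusted p under 0.05. Of all 7275 genes, 0.124% were called on FPKM and 0.137% on scaled FPKM, so the test called little of anything here.

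The same mice differed in endothelial markers. *Pecam1*, the endothelial adhesion molecule CD31, was 0.663, 0.252, 39.1 and 0.290 FPKM in *Pdgfra-tdT* saline mice 1 to 4 and 65.9, 5.78, 2.64 and 0.443 FPKM in bleomycin mice 5 to 8. The 8 endothelial markers (*Pecam1*, *Cdh5*, *Kdr*, *Tie1*, *Tek*, *Cldn5*, *Vwf* and *Emcn*) summed to 4.52 to 383 FPKM in saline mice and 4.51 to 1010 FPKM in bleomycin mice, and none of the 8 was at 0 throughout a group. Mice with high *Col4a1* and *Col4a2* were the mice with high endothelial markers, in the order 5, 3, 6, 7 for *Col4a1* plus *Col4a2* (105, 16.9, 11.4 and 4.73 FPKM), and in the same order for *Pecam1*. In these 4 mice the collagen IV sum was 0.432 to 1.97 times *Pecam1*. In *Acta2-tdT* bleomycin mice the sum was 22.8 to 72.1 times *Pecam1*, which was 2.32 to 5.11 FPKM or 0.309 to 0.789 scaled FPKM there. The sum of endothelial markers in that group was 24.9 to 29.2 FPKM, below that of the *Pdgfra-tdT* mice 3, 5, 6 and 7 (33.0 to 1010 FPKM). Scaled, it was 3.07 to 5.29 in these *Acta2-tdT* bleomycin mice and 7.67 to 11.8 in their saline controls, against 7.78 to 360 and 7.39 to 314 in *Pdgfra-tdT* mice. Other lists peaked in some of these mice. The 7 fibroblast markers were highest in saline mouse 3 (57.2 FPKM, group median 11.5) and bleomycin mouse 5 (160, median 11.1). The smooth muscle and leukocyte FPKM sums were highest in bleomycin mouse 5, but in saline mice 4 and 1. Epithelial sums were highest in mice 2 and 8. Mice 3 and 5 also had the largest nuclear protein-coding sums of their groups (59840 and 137952 FPKM). The part of endothelial RNA or of other cells in the *Pdgfra-tdT* values was not tested.

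**Figure D2:**
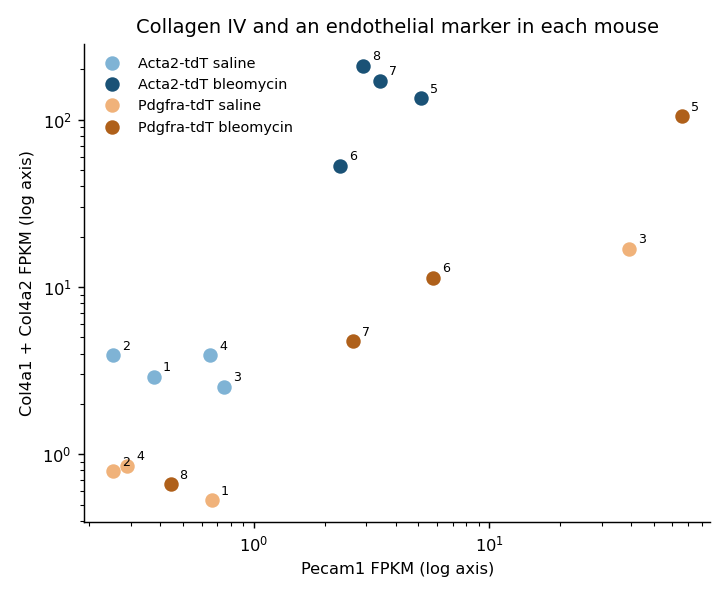
*Col4a1* plus *Col4a2* FPKM against *Pecam1* FPKM in each of the 16 mice (both axes log). Numbers beside the points are mouse numbers. In *Pdgfra-tdT* mice the highest collagen IV values, 105 FPKM in mouse 5 and 16.9 FPKM in mouse 3, went with the highest *Pecam1*, while the 4 *Acta2-tdT* bleomycin mice reached 53.0 to 210 FPKM with *Pecam1* of 2.32 to 5.11 FPKM.

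*Col15a1* did not share this spread, and *Col18a1* shared it in part. *Col15a1* was 0.131, 0.208, 0.129 and 0.196 FPKM in *Pdgfra-tdT* saline mice and 0.225, 0.261, 0.354 and 0.127 FPKM in bleomycin mice, with mouse 3 and mouse 5 inside the range of the others. *Col18a1* was 0.160, 0.229, 0.0805 and 0.0902 FPKM with saline and 0.970, 0.136, 0.533 and 0.0833 FPKM with bleomycin, where mice 5 and 7 were highest. With bleomycin mouse 5 was highest and mouse 8 lowest, as for *Col4a1* and *Col4a2*, but saline mouse 3 was not high. Both genes lay below the median of the receptor genes in all 4 saline mice and above it in 2 of 4 bleomycin mice, so their spread says little. Neither gene reached 1 FPKM in any *Pdgfra-tdT* mouse, so neither passed the filter within this line. Without a filter limma gave log2 changes of 0.09 for *Col15a1* and 0.29 for *Col18a1* on FPKM (adjusted p = 0.850 and 0.841). No member was called on scaled FPKM either, and 2 of 42954 genes were called on each scale.

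Between the lines, saline mice showed no called difference. *Col4a1* was 1.39 ± 0.34 FPKM in *Acta2-tdT* and 1.93 ± 3.30 FPKM in *Pdgfra-tdT* mice (SD, n = 4), and *Col4a2* was 1.93 ± 0.37 and 2.84 ± 4.79 FPKM. The log2 fold changes were 0.24 ± 0.59 (SE) and 0.28 ± 0.66 on FPKM (limma, adjusted p = 0.896 and 0.889) and 0.28 ± 0.50 and 0.30 ± 0.56 on scaled FPKM (adjusted p = 0.820 and 0.826). None of the 2 members tested was called or had an unadjusted p under 0.05, where 2.91% of the 8153 genes were called on FPKM and 3.42% on scaled FPKM. The result turned on *Pdgfra-tdT* saline mouse 3, the mouse with high endothelial markers. Without it both genes were higher in *Acta2-tdT* cells, by a log2 of 0.89 ± 0.14 for *Col4a1* and 1.01 ± 0.15 for *Col4a2* on FPKM (adjusted p = 0.00685 and 0.00596), and by 0.83 ± 0.18 and 0.91 ± 0.20 on scaled FPKM (adjusted p = 0.0114 and 0.0133). Without that mouse many other genes were called as well, 2043 of 8153 higher on FPKM and 2013 on scaled FPKM. *Col18a1* did not pass the filter with saline. Its 4 *Acta2-tdT* mice (0.497 to 1.08 FPKM) all lay above the 4 *Pdgfra-tdT* mice (0.0805 to 0.229 FPKM), and this held on scaled FPKM. Without a filter limma did not call *Col18a1*, at a log2 of 0.64 on FPKM and 0.63 on scaled FPKM (adjusted p = 0.232 and 0.244). Of all 43598 genes, 59 and 106 were then called. *Col15a1* lay the other way on average, at 0.0715 ± 0.0570 FPKM in *Acta2-tdT* and 0.166 ± 0.042 FPKM in *Pdgfra-tdT* mice, with overlapping ranges and both below the median of the receptor genes.

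With bleomycin, all 4 members tested were higher in *Acta2-tdT* than in *Pdgfra-tdT* cells on FPKM, where 71% of the 11995 genes were higher and the median log2 fold change was 1.81. *Col18a1* was 12.8 ± 4.8 FPKM against 0.430 ± 0.412 (SD, n = 4), and *Col15a1* was 8.35 ± 3.94 FPKM against 0.242 ± 0.094. These 2 genes passed the filter through the 4 *Acta2-tdT* bleomycin mice alone, the group in which they were then higher, on both scales. Their ranges did not overlap, and the log2 fold changes were 3.25 ± 0.41 (SE) and 2.81 ± 0.38 (limma, adjusted p = 0.000104 and 0.000139). *Col4a1* was 48.4 ± 20.9 against 10.9 ± 16.9 FPKM and *Col4a2* was 93.6 ± 46.1 against 19.5 ± 32.9 FPKM, with log2 fold changes of 3.04 ± 0.95 and 3.57 ± 1.11 (adjusted p = 0.0115 and 0.0114). *Pdgfra-tdT* mouse 5 lay inside the *Acta2-tdT* range for both genes, so these groups overlapped. Both calls were lost without a filter (adjusted p = 0.0552 and 0.0575) and with quantile normalization (adjusted p = 0.198 and 0.122).

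On scaled FPKM, 2 of the 4 members were higher, where 15.8% of genes were higher and the median log2 fold change was 0.14. *Col18a1* differed by a log2 of 1.08 ± 0.25 (adjusted p = 0.0100) and *Col15a1* by 0.77 ± 0.21 (adjusted p = 0.0192). Both calls were lost without a filter (adjusted p = 0.0561 and 0.0982). *Col4a1* differed by 0.65 ± 0.61 (adjusted p = 0.420) and *Col4a2* by 1.11 ± 0.76 (adjusted p = 0.275), neither of which passed. *Pdgfra-tdT* mouse 5 had the highest scaled values of all 16 mice for both genes, 12.9 and 24.5, against 4.49 to 7.55 and 6.77 to 14.7 scaled FPKM in the *Acta2-tdT* bleomycin mice. Without that mouse *Col4a2* passed, with a log2 change of 1.82 (adjusted p = 0.0212), and *Col4a1* was at 1.18 (adjusted p = 0.0555). Without mouse 8 the changes were smaller instead, at 0.49 for *Col4a2* and 0.13 for *Col4a1* (adjusted p = 0.587 and 0.860). Of the 6 endothelial markers tested, 5 were lower in *Acta2-tdT* than in *Pdgfra-tdT* cells with bleomycin on scaled FPKM, while on FPKM 0 of 6 were called lower. Of all 11995 genes 2112 were lower on scaled FPKM and 1033 on FPKM.

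**Figure D3:**
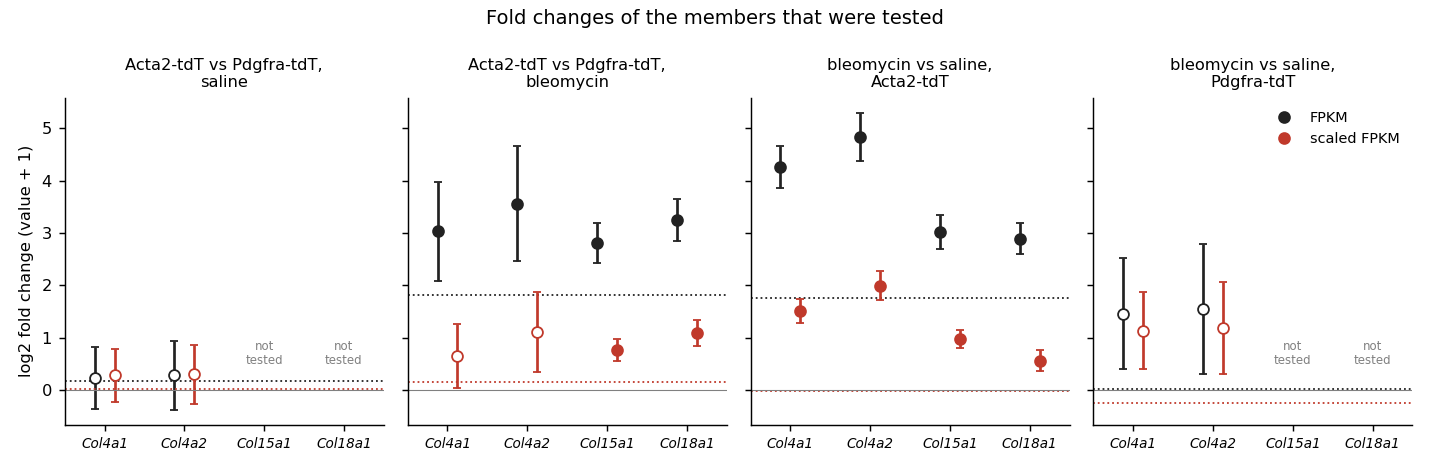
Log2 fold change (value + 1) ± SE of the members that were tested, in 4 comparisons of 4 against 4 mice, on FPKM (black) and scaled FPKM (red). Filled points passed an adjusted p of 0.05, and dotted lines are the median of all genes tested. In *Acta2-tdT* cells all 4 genes passed on both scales, from 0.56 for *Col18a1* on scaled FPKM to 4.84 for *Col4a2* on FPKM, and in *Pdgfra-tdT* cells neither gene tested passed.

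The difference of the bleomycin effect between the lines was tested over all 16 mice. *Col15a1* and *Col18a1* responded more in *Acta2-tdT* cells on FPKM, by a log2 of 2.93 ± 0.36 (SE) and 2.61 ± 0.38 (limma, adjusted p = 6.23e-05 and 0.00022). No *Pdgfra-tdT* mouse reached 1 FPKM of either gene, so both were tested only because they were high in *Acta2-tdT* bleomycin mice, which favours a positive value here. With quantile normalization *Col18a1* was at 1.12 and no longer passed (adjusted p = 0.0597). *Col4a1* and *Col4a2* differed by 2.80 ± 1.19 and 3.29 ± 1.40 and did not pass (adjusted p = 0.0722 and 0.0724), so 2 of 4 members were called higher where 36.6% of 16605 genes were called higher. Without *Pdgfra-tdT* mouse 5 all 4 members passed, and likewise without mice 3 and 5, with 3.06 ± 0.67 for *Col4a1* and 3.66 ± 0.79 for *Col4a2* (adjusted p = 0.0022 and 0.00204). The genes called higher were then 8169 of 16605 without mouse 5 and 8022 without mice 3 and 5, against 6074 with all mice. Without saline mouse 3 alone or mouse 8 alone the values were smaller, at 2.14 and 2.11 for *Col4a1* and 2.55 and 2.49 for *Col4a2* (adjusted p from 0.145 to 0.149). On scaled FPKM *Col15a1* alone of the 4 passed, by 0.97 ± 0.21 (adjusted p = 0.0265), where 1.33% of genes were called higher. Its call was lost without a filter, where 0 members and 158 of 44499 genes were called. The values of the other 3 were 0.45 ± 0.27 for *Col18a1* (adjusted p = 0.385), 0.38 ± 0.85 for *Col4a1* (adjusted p = 0.844) and 0.81 ± 1.03 for *Col4a2* (adjusted p = 0.703). *Col4a1* turned to -0.18 without saline mouse 3 and to -0.15 without mouse 8 of *Pdgfra-tdT*, and *Col4a2* was then at 0.19 in both cases. Without mouse 5 they were at 0.91 and 1.52 and did not pass either (adjusted p = 0.453 and 0.261). The call of *Col15a1* was lost when any of 8 of the 16 mice was left out, with adjusted p from 0.0507 to 0.0659, and its value then stayed between 0.93 and 0.99.

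A ratio within a mouse depends little on scaling where values are well above the 0.1 FPKM added to each sum, and more where they are low, as in *Pdgfra-tdT* saline mice. Tests of 12 such ratios were exact two-sided permutation tests over the 70 labellings of 8 mice, whose smallest p is 0.0286. *Col4a2* was more abundant than *Col4a1* in all 16 mice. In *Acta2-tdT* mice the ratio of *Col4a2* to *Col4a1*, was 1.40, 1.40, 1.47 and 1.24 with saline and 1.92, 1.503, 2.08 and 1.95 with bleomycin. The groups did not overlap, and the log2 ratio was 0.43 higher with bleomycin (exact p = 0.0286, adjusted over 12 tests p = 0.114). In *Pdgfra-tdT* mice it was 1.07, 1.46, 1.45 and 1.82 with saline and 1.90, 1.34, 1.07 and 1.08 with bleomycin, with overlap (exact p = 0.571, adjusted p = 0.762).

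The second ratio set collagen IV against the fibrillar collagens. *Col1a1*, *Col1a2* and *Col3a1*, the main collagens of scar, were 671 ± 342, 586 ± 219 and 279 ± 172 FPKM in *Acta2-tdT* mice with bleomycin and 2.03 ± 0.30, 3.16 ± 0.50 and 2.09 ± 0.39 FPKM in *Acta2-tdT* mice with saline. Their sum in *Pdgfra-tdT* mice was 0.723 to 7.74 FPKM with saline and 0.668 to 47.4 FPKM with bleomycin. In *Acta2-tdT* mice the log2 ratio of *Col4a1* plus *Col4a2* to their sum was -1.12 ± 0.31 (SD, n = 4) with saline and -3.46 ± 0.20 with bleomycin, a difference of -2.34 without overlap (exact p = 0.0286, adjusted p = 0.114). In *Pdgfra-tdT* cells with bleomycin it was 1.43 ± 1.10, with ratios of 2.21, 4.74, 5.05 and 0.991 in the 4 mice. The lines with bleomycin differed by -4.89 without overlap (exact p = 0.0286, adjusted p = 0.114). The lines with saline differed by -0.03 (exact p = 0.971, adjusted p = 1), and *Pdgfra-tdT* saline mice ran from -3.03 to 1.13. That difference turned with single mice, from -0.67 without *Pdgfra-tdT* mouse 4 to 0.72 without mouse 3. The change with bleomycin in *Pdgfra-tdT* cells was 2.53 (exact p = 0.0571, adjusted p = 0.137). None of the 12 tests passed after adjustment.

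The log2 ratio of *Col15a1* plus *Col18a1* to *Col4a1* plus *Col4a2* was -1.86 ± 0.44 with saline and -2.67 ± 0.65 with bleomycin in *Acta2-tdT* mice (difference -0.81, exact p = 0.171, adjusted p = 0.343). In *Pdgfra-tdT* mice it was lowest in mouse 5 with bleomycin (-6.34) and mouse 3 with saline (-5.78), the mice with the most endothelial marker signal, and it was -0.69 to -1.31 in the other saline mice. Groups overlapped in each of the 4 comparisons of this ratio (exact p from 0.171 to 1). With 1 FPKM added in place of 0.1, the difference in *Acta2-tdT* mice was -1.40 and the groups no longer overlapped (exact p = 0.0286, before adjustment).

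**Figure D4:**
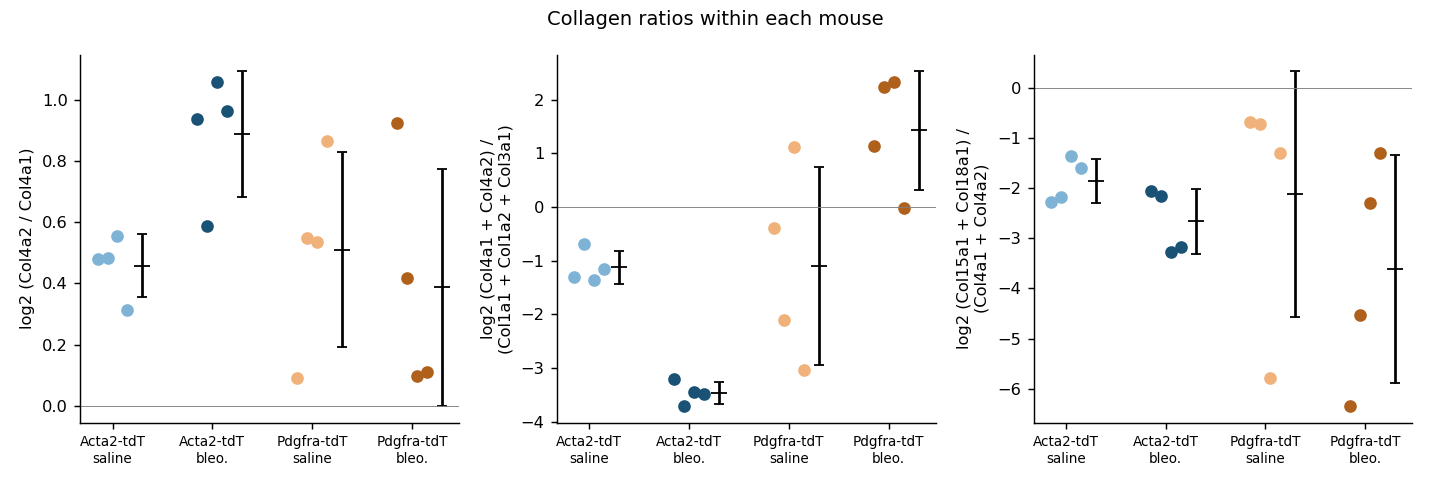
Log2 ratios of collagen FPKM within each mouse, with 0.1 FPKM added to each sum. Coloured points are mice and black marks are the mean ± SD, n = 4. *Acta2-tdT* bleomycin mice lay together in the second panel at -3.71 to -3.21, below all other mice, while *Pdgfra-tdT* mice were spread in all 3 panels.

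Genes that build and bind basement membrane were followed with the members. Of 22 partners (laminins, nidogens, perlecan, agrin, SPARC, fibulins and others), 14 were tested for bleomycin in *Acta2-tdT* cells. On scaled FPKM 10 rose and 2 fell with a median log2 change of 0.79, and on FPKM all 14 rose with a median of 3.23. Of all genes in this comparison 23.9% were higher on scaled FPKM and 70.4% on FPKM, with medians of -0.02 and 1.76. *Fbln2*, the matrix protein fibulin 2, had the largest rise, from 0.506 ± 0.103 to 13.0 ± 3.7 scaled FPKM (SD, n = 4; log2 fold change 3.18, adjusted p = 2.28e-05). *Lama4*, the laminin α4 chain of vessel walls, had the largest fall, from 2.83 ± 0.70 to 1.504 ± 0.191 scaled FPKM (log2 fold change -0.60, adjusted p = 0.0209), but on FPKM it rose by a log2 of 1.73 (adjusted p = 0.00105). Between the lines with bleomycin, 9 of 15 were higher in *Acta2-tdT* on scaled FPKM and none lower, where 15.8% of all genes were higher, led by *Sparc*, a collagen-binding protein that assists collagen IV deposition, at 719 ± 131 against 128 ± 152 scaled FPKM (log2 fold change 3.42, adjusted p = 0.0219). With saline 1 of 3 was higher, where 3.42% of all genes were called on scaled FPKM. This was *Lama4*, at 2.83 ± 0.70 against 0.426 ± 0.171 scaled FPKM (log2 fold change 1.41, adjusted p = 0.0103). For the interaction 5 of 15 were called higher on scaled FPKM, where 1.33% of all genes were, led by *Fbln2* (log2 difference 3.40, adjusted p = 0.00121).

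Genes of collagen assembly and turnover (hydroxylases, chaperones, cross-linking enzymes, proteases and their inhibitors) numbered 31 in the tables, and all 31 were tested in *Acta2-tdT* cells. With bleomycin 26 rose and 1 fell on scaled FPKM with a median log2 change of 1.36, and on FPKM all 31 rose with a median of 4.06, against 23.9% and 70.4% of all genes called higher. *Timp1*, an inhibitor of matrix metalloproteinases, had the largest rise, from 5.01 ± 1.36 to 194 ± 50 scaled FPKM (log2 fold change 5.01, adjusted p = 1.42e-05). *Timp3*, the inhibitor bound to matrix, fell from 19.2 ± 2.6 to 8.14 ± 0.93 scaled FPKM (log2 fold change -1.14, adjusted p = 0.00214), but on FPKM rose by a log2 of 1.70 (adjusted p = 0.00188). *Timp1* was also the leading gene between the lines with bleomycin, where 21 of 31 were higher in *Acta2-tdT* on scaled FPKM against 15.8% of all genes (log2 fold change 5.40, adjusted p = 0.000777), and in the interaction, where 9 of 31 were called against 1.33% of all genes (log2 difference 5.38, adjusted p = 0.00145). With saline 1 of 11 was called, against 3.42% of all genes, and this was *Timp3*, at 19.2 ± 2.6 scaled FPKM in *Acta2-tdT* against 1.04 ± 0.24 in *Pdgfra-tdT* cells (log2 fold change 3.30, adjusted p = 0.00145).

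Of 23 receptors (integrins, discoidin domain receptors, syndecans and others), 16 were tested for bleomycin in *Acta2-tdT* cells, of which 9 rose and 2 fell on scaled FPKM with a median log2 change of 0.47. On FPKM all 16 rose with a median of 2.96, and of all genes 23.9% were higher on scaled FPKM and 70.4% on FPKM. *Itga5*, the α chain of the fibronectin receptor, had the largest rise, from 0.640 ± 0.181 to 10.4 ± 2.7 scaled FPKM (log2 fold change 2.77, adjusted p = 2.28e-05), and it also led the 4 of 16 called in the interaction, where 1.33% of all genes were called higher (log2 difference 2.28, adjusted p = 0.0263). *Itga1*, the α chain of the integrin that binds collagen IV, fell from 0.816 ± 0.280 to 0.383 ± 0.168 scaled FPKM (log2 fold change -0.39, adjusted p = 0.043), but on FPKM rose by a log2 of 1.03 (adjusted p = 0.00165). Between the lines with bleomycin 11 of 16 were higher in *Acta2-tdT* on scaled FPKM, against 15.8% of all genes, led by *Sdc4*, a heparan sulphate proteoglycan of the cell surface, at 7.04 ± 1.03 against 0.325 ± 0.312 scaled FPKM (log2 fold change 2.62, adjusted p = 0.000603). With saline 1 of 6 was called, against 3.42% of all genes, and this was *Sdc2*, another syndecan (log2 fold change 1.23, adjusted p = 0.0313), which missed the threshold on FPKM (adjusted p = 0.056). For bleomycin in *Pdgfra-tdT* cells 0 of 1 partners, 0 of 10 assembly genes and 0 of 3 receptors were called by limma on either scale, where 0.124% and 0.137% of all genes were. Of these 14 genes *Mmp12*, *Ctsb* and *Cd44* had an unadjusted p under 0.05 on FPKM, and *Mmp12* and *Ctsb* on scaled FPKM. In all 3 lists more genes reached 1 FPKM in 2 or more *Acta2-tdT* bleomycin mice (17 of 22 partners, 31 of 31 assembly genes and 16 of 23 receptors) than in any other group (at most 5, 18 and 7). Being tested thus often required a high value in that group, which favours higher calls there and in the interaction, as for *Col15a1* and *Col18a1*.

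The genes whose pattern was most like that of 3 members were found by Pearson's r of log2(scaled FPKM + 1) over the 16 mice, among 4813 protein-coding genes outside the group. The 16 points share the 4 groups and the scaling, so r describes a pattern. *Col4a2* followed *Col4a1* with r = 0.991, and outside the group *Fkbp1a* (r = 0.972), *Cdc42ep4* (r = 0.959) and *Farsb* (r = 0.957) came closest. The genes nearest to *Col15a1* were *Fn1*, which encodes fibronectin (r = 0.917), *Prkg2* (r = 0.899) and *Cks1b* (r = 0.893), and those nearest to *Col18a1* were *Nnmt* (r = 0.921), *Siva1* (r = 0.919) and *Cks2* (r = 0.916). *Fn1* was 24.3 ± 4.5 scaled FPKM (SD, n = 4) in *Acta2-tdT* bleomycin mice and 0.577 ± 0.087, 1.03 ± 0.37 and 1.89 ± 0.51 in *Acta2-tdT* saline, *Pdgfra-tdT* saline and *Pdgfra-tdT* bleomycin mice. *Fkbp1a* was 55.8 ± 3.9 scaled FPKM in *Acta2-tdT* bleomycin mice but also 37.3 ± 39.0 in *Pdgfra-tdT* bleomycin mice, with the same wide spread as *Col4a1* in that group (5.21 ± 5.40).

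Neighbouring genes limit some of these values, since strand-aware counting is not given in the sources used here. *Slc19a1*, a folate carrier, overlaps *Col18a1* on the opposite strand over 8825 bases, and its mean was 0.357 FPKM in *Acta2-tdT* saline and 6.26 FPKM in *Acta2-tdT* bleomycin mice, against 0.140 and 0.388 FPKM in *Pdgfra-tdT* mice. Reads from the shared stretch cannot be told apart. *Gm15418* and *Gm15419*, antisense to *Col4a1* and *Col4a2*, had group means of 0.197 to 0.380 FPKM and at most 0.0393 FPKM. *Col4a3* is overlapped over 30132 bases on the opposite strand by *C430014B12Rik*, with group means of 1.10 to 2.23 FPKM, and over 98 bases on its own strand by the ribosomal RNA gene *n-R5s213*, at 45.1 FPKM in *Acta2-tdT* saline, 40.4 FPKM in *Pdgfra-tdT* saline and 0 in both bleomycin groups. The part of these genes in the values of *Col4a3* was not tested. In the order of group means, *Acta2-tdT* bleomycin came first for all 4 major genes on FPKM. It was separated from the next group for *Col15a1* and *Col18a1*, while for *Col4a1* and *Col4a2* every neighbour in the order overlapped the next.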

How the data were processed

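RNA of sorted tdTomato-positive lung cells from 16 mice (4 groups of 4) was prepared with SmartSeq2. The authors aligned reads with TopHat2 2.1.1 and Bowtie2 2.2.9 to GRCm38 and computed FPKM per gene and mouse with Cufflinks 2.1.1, and the deposited FPKM with their bounds were used. FPKM hold no counts, so the depth is unknown and no counting interval was made. Rows of a gene were summed (49534 rows, 49452 genes), and 15 genes with a Cufflinks status other than OK were left out. Scaled FPKM set the sum of 21950 nuclear protein-coding genes to the median of the mice.

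limma 3.58.1 (R 4.3.3; lmFit, eBayes with trend) was run on log2(value + 1) of all genes that reached 1 FPKM in 4 or more mice of the comparison, and adjusted p-values (Benjamini-Hochberg) were called at 0.05. The genes were chosen on unscaled FPKM, also where a mouse was left out. It was checked on simulated data. Ratios were tested by exact permutation (Python 3.11.15, SciPy 1.17.1), and figures were drawn with matplotlib 3.10.9. The members and lists were chosen with earlier results of these data known. The text names all members, *Acta2* and *Pdgfra*, the called gene with the largest rise and the largest fall in scaled FPKM of each list and comparison, and the 3 genes nearest to *Col4a1*, *Col15a1* and *Col18a1*. Markers of a cell type and overlapping genes were named after their values were seen, as was the gauge of receptor genes. No label ties a mouse number to a shared litter or day, and each mouse was taken as a separate animal. Alternatives changed the pseudocount, the filter, the trend, the mice in the fit, the scaling and the summing of rows, used the mouse number as a block, or left out each mouse.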

Additional observations from a re-analysis of the deposited data

Results flagged for a closer look

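In *Pdgfra-tdT* saline mice, mouse 3 lay far above the other 3 for *Col4a1*, *Col4a2* and *Col4a5*. The gap to the next mouse was 0.979, 0.900 and 0.898 of the group's range in log2(FPKM + 1), past Dixon's critical value for 4 mice. The same mouse lay far below the others in the log2 ratio of *Col15a1* plus *Col18a1* to *Col4a1* plus *Col4a2*, with a gap of 0.878 of the range. This mouse had *Pecam1* at 39.1 FPKM against 0.252 to 0.663 FPKM in the others of its group. Of 44 sets of 4 values looked at, 4 passed, and chance passes about 1 in 20.

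The effect of bleomycin differed between the lines for 2 of 4 members on FPKM, by a log2 of 2.93 for *Col15a1* and 2.61 for *Col18a1*, and for *Col15a1* on scaled FPKM by 0.97. The rise was larger in *Acta2-tdT* cells in each case. Of all 16605 genes, 36.6% were called higher on FPKM and 1.33% on scaled FPKM. The call on scaled FPKM was lost without any of 8 of the 16 mice, and also without a filter. The call of *Col18a1* on FPKM was lost with quantile normalization (limma, adjusted p = 0.0597). Both genes were tested only because they were high in the *Acta2-tdT* bleomycin mice, which favours such a difference.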

How the results depend on the processing

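Depth is unknown, values up to 0.336 FPKM lie within the range of the receptor genes' median in saline mice, and 4 against 4 mice cannot give an exact p under 0.0286 or 4 pairs one under 0.125. For bleomycin in *Acta2-tdT* cells the number of members called ran from 4 to 5 on FPKM and 3 to 5 on scaled FPKM over the alternatives run, and for bleomycin in *Pdgfra-tdT* cells it was 0 in all of them. The 5 on scaled FPKM came without a filter and were 3 higher and 2 lower. The lower ones were *Col4a3* and *Col4a4*, and a rise called with the filter was lost. Over all genes the counts moved more: without a filter the called genes went from 7083 to 16928 for bleomycin in *Acta2-tdT* cells on scaled FPKM, from 4012 to 1291 between the lines with bleomycin on scaled FPKM, and from 9 to 2 for bleomycin in *Pdgfra-tdT* cells on FPKM. This last count was 73 without *Pdgfra-tdT* mouse 8, and on scaled FPKM it went from 10 to 53 with all 16 mice in 1 fit. Quantile normalization left 2 of the 4 members called between the lines with bleomycin on FPKM, where 4685 of 11995 genes were called higher. In the interaction it left 1 of the 2 called members, where 1201 of 16605 genes were called higher. Without a filter on low values, 0 members were called on scaled FPKM between the lines with bleomycin and 0 in the interaction, where many more genes enter the adjustment. On FPKM it ended the calls of *Col4a1* and *Col4a2* between the lines with bleomycin (adjusted p = 0.0552 and 0.0575). Without *Pdgfra-tdT* mice 3 and 5, a choice made after seeing the data, 4 members passed in the interaction on FPKM. Leaving out each mouse gave 0 to 2 members called between the lines with saline on both scales (2 without *Pdgfra-tdT* mouse 3), 2 to 4 in the interaction on FPKM (4 without *Pdgfra-tdT* mouse 5) and 0 to 1 in the interaction on scaled FPKM. With 1 FPKM added to each sum, the ratio of *Col15a1* plus *Col18a1* to *Col4a1* plus *Col4a2* fell by 1.40 on the log2 scale with bleomycin in *Acta2-tdT* mice (exact p = 0.0286, before adjustment). Within a scale, no called value of a member or ratio changed sign under these alternatives. Between the scales *Lama4*, *Timp3* and *Itga1* were called in opposite directions for bleomycin in *Acta2-tdT* cells.

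Mouse numbers are shared between the lines, and no label says that they pair the mice. Correlations of same-numbered mice's deviations were 0.072, 0.073, 0.133 and -0.049 with saline and -0.032, -0.029, -0.057 and -0.151 with bleomycin. Only for saline number 3 did this exceed the highest correlation with another number (-0.057). Such deviations within groups of 4 mice cannot exclude a shared day or litter. With the replicate number as a block, 0 members were called with saline on both scales, 4 with bleomycin on FPKM and 2 on scaled FPKM, as without it. Of all 11995 genes, 8502 were then called higher with bleomycin on FPKM and 1295 on scaled FPKM. With saline the calls over all genes fell from 237 to 36 on FPKM and from 279 to 105 on scaled FPKM. For the 6 ratios between the lines the mean paired difference equals the difference of group means by arithmetic (-4.89 to 0.95), so the block says nothing about them.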
